A study of Mus musculus with 19 samples.

Results

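The 10 genes described here, Pax6, Trp63, Klf4, Klf5, Ehf, Elf3, Grhl1, Grhl2, Grhl3 and Casz1, encode transcription factors of the ocular surface epithelium. They were taken by symbol from the gene tables of the cornea and of the conjunctiva. All 10 were present among the 24552 gene symbols of each table, and all 10 passed the minimum mean of 10 normalized counts in both tissues. The libraries came from C57BL/6 mice, by the study's methods females of the substrain C57BL/6 J, and the titles carry the notes 6M and 50W. Some mice ate ad libitum (AL) and others were under calorie restriction (CR). By the methods the restriction was brought in stepwise in adult mice and then kept up for months. In 1 of the study's cohorts the chow of CR mice held more vitamins and micronutrients than that of AL mice. The titles do not name the cohort. The groups were 5 AL and 5 CR libraries of the cornea, and 4 AL and 5 CR libraries of the conjunctiva, each library 1 sample in the labels. By the methods the cornea was sampled as its scraped epithelium, the conjunctiva was cut out as a tissue piece, and CR mice received their food once a day shortly before the dark phase. The study counts the groups in mice and took several tissues from a mouse, so libraries of the cornea and of the conjunctiva may share animals. The labels do not say which, and the libraries were fitted as separate samples.

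The cornea and the conjunctiva are covered by stratified epithelia of shared origin. PAX6 directs eye development and keeps the adult corneal epithelium in its own fate. p63, the product of Trp63, maintains the basal proliferating layer of stratified epithelia, and the Krüppel-like factors KLF4 and KLF5 act in differentiation and barrier formation and in proliferating cells. EHF and ELF3 are ETS factors restricted to epithelia, the grainyhead-like factors GRHL1, GRHL2 and GRHL3 control junction and barrier genes, and CASZ1 is a zinc finger factor of the castor type.

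The libraries held 10354125 to 14681223 reads counted to genes, and the 10 genes rested on between 126 reads (Grhl3 in its lowest library) and 36452 reads (Klf4 in its highest). Krt12, the keratin that defines the corneal epithelium, had 179846 to 340965 normalized counts in cornea libraries and 436 to 5139 in conjunctiva libraries. Muc5ac, the mucin of conjunctival goblet cells, lay between 2328 and 6593 normalized counts in the conjunctiva and between 0 and 43.3 in the cornea. Both tissues thus carried the defining marker of their label. The conjunctival pieces also held other tissue, with a sum over 9 fibroblast genes of 27352 to 62539 and over 6 skeletal muscle genes of 13254 to 132348 normalized counts. In these bulk samples, fewer cells of a type and less RNA per cell cannot be told apart. A few libraries stood apart. Cornea AL 1 had 23733 normalized counts over 7 lacrimal gland genes, against 30.9 to 629 in the other AL and 0 to 46.0 in the CR cornea libraries, and of 5 lacrimal gland genes tested there 5 were lower under CR and 1, Esp6, was called. Cornea CR 7 had 65373 normalized counts over 6 conjunctival keratin genes, against 26287 to 42641 in the other cornea libraries, and 504147 over the 7 corneal differentiation genes, against 619281 to 748392. Conjunctiva CR 3 had the highest muscle sum, at 132348. Conjunctiva CR 5 had 9816 normalized counts over 6 meibomian gland genes, against 1309 to 1844 in the others. The share of genes at 0 was 38.73% to 45.15% in AL and 39.92% to 47.56% in CR cornea libraries, with AL 4 the highest of its group and CR 1 the lowest of its group.

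The genes of the grainyhead-like factors and of KLF4 lie as follows in GRCm38, the build that the study's methods name as mm10 (the submitters' processing notes name GRCm39). Grhl3 occupies chr4:135541887-135573632 on the minus strand and Klf4 chr4:55527137-55532475 on the minus strand. Neither overlapped another annotated gene in GENCODE vM21. Grhl1 spans chr12:24572232-24617391 and Grhl2 chr15:37232821-37363569, both on the plus strand. Grhl2 shares 169 exonic bases with the antisense gene Gm16136, Elf3 (chr1:135253574-135258472, minus strand) shares 162 with the antisense gene Gm26642, and Casz1 (chr4:148804366-148954893, plus strand) shares 122 with the antisense gene Gm13205. The sources name different library kits, so whether strand was used in counting is not settled and reads of these partners could not be told apart. Pax6 (chr2:105668896-105698410, plus strand), Trp63 (chr16:25683763-25892088, plus strand), Klf5 (chr14:99298691-99313412, plus strand) and Ehf (chr2:103263431-103303275, minus strand) shared no exonic bases with another gene.

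The bases before the start of Grhl3, the gene that passed the test under CR, and of Klf4, the gene with the highest level per length, are shown as RefSeq gives them for GRCm38.p6. Each is the 250 bases upstream of the start, 5′ to 3′ along the gene. Capitals mark the motifs searched on both strands, which were CACGTG (the E-box bound by clock factors), CCACCC (the CACC box bound by KLF factors), TTANGTAA (a D-box core) and AACCNGTT (a grainyhead core). None of these motifs contains another.
Grhl3 (chr4:135573633-135573882, minus strand): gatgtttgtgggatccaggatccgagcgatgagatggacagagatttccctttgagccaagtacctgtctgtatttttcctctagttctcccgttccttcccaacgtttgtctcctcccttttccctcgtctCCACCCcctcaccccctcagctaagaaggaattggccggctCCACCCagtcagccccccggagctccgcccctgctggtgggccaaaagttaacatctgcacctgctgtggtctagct
Klf4 (chr4:55532476-55532725, minus strand): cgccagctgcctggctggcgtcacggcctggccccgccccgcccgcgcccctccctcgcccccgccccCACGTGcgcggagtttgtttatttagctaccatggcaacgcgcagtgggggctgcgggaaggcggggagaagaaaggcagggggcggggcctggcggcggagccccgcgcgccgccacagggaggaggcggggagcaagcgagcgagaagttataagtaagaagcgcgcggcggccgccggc
The Grhl3 window held CCACCC at 2 places, starting 118 and 77 bases before the start, and none of the other motifs. The Klf4 window held CACGTG once, starting 182 bases before the start. Across 32851 promoter windows of the same length, 28.1% held CCACCC, 6.02% CACGTG, 2.06% TTANGTAA and 1.79% AACCNGTT. The promoter table held 9 windows for 6 of the 10 genes. Of these 9, 5 held CCACCC, 1 held CACGTG and 0 held either of the other motifs. A match is a description of the letters and not of a bound site.

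Per length of exon, the 10 factors covered a wide range, and Klf4 led in every group. In cornea AL libraries Klf4 averaged 685 reads per kilobase of exon, with each library scaled to 1000000 counted reads (648 to 762, n = 5). Elf3 (190), Klf5 (171) and Ehf (139) followed, and neighbours among these overlapped between libraries. Pax6 (53.5) and Grhl1 (34.3) came next, each separate from its neighbours. The lowest were Casz1 (10.7), Trp63 (7.52), Grhl2 (6.47) and Grhl3 (5.75), and of these the ranges of Trp63 and Grhl2 and of Grhl2 and Grhl3 overlapped. In cornea CR libraries Grhl3, at 15.1 (11.7 to 19.4, n = 5), had moved from the tenth to the seventh place, above Trp63 (10.6), with which its range overlapped. In conjunctiva AL libraries the order was Klf4 (224), Klf5 (187), Elf3 (177), Ehf (92.1), Pax6 (33.0), Grhl1 (25.3), Casz1 (9.3), Grhl3 (8.4), Trp63 (7.89) and Grhl2 (5.44). Klf4 and Klf5 did not overlap there, whereas in conjunctiva CR libraries Klf4 (273, 228 to 321) and Klf5 (258, 157 to 333) did. If reads came only from the 3′ end of transcripts, which one of the named kits would give, these per-length levels would understate the long transcripts.

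**Figure D1:**
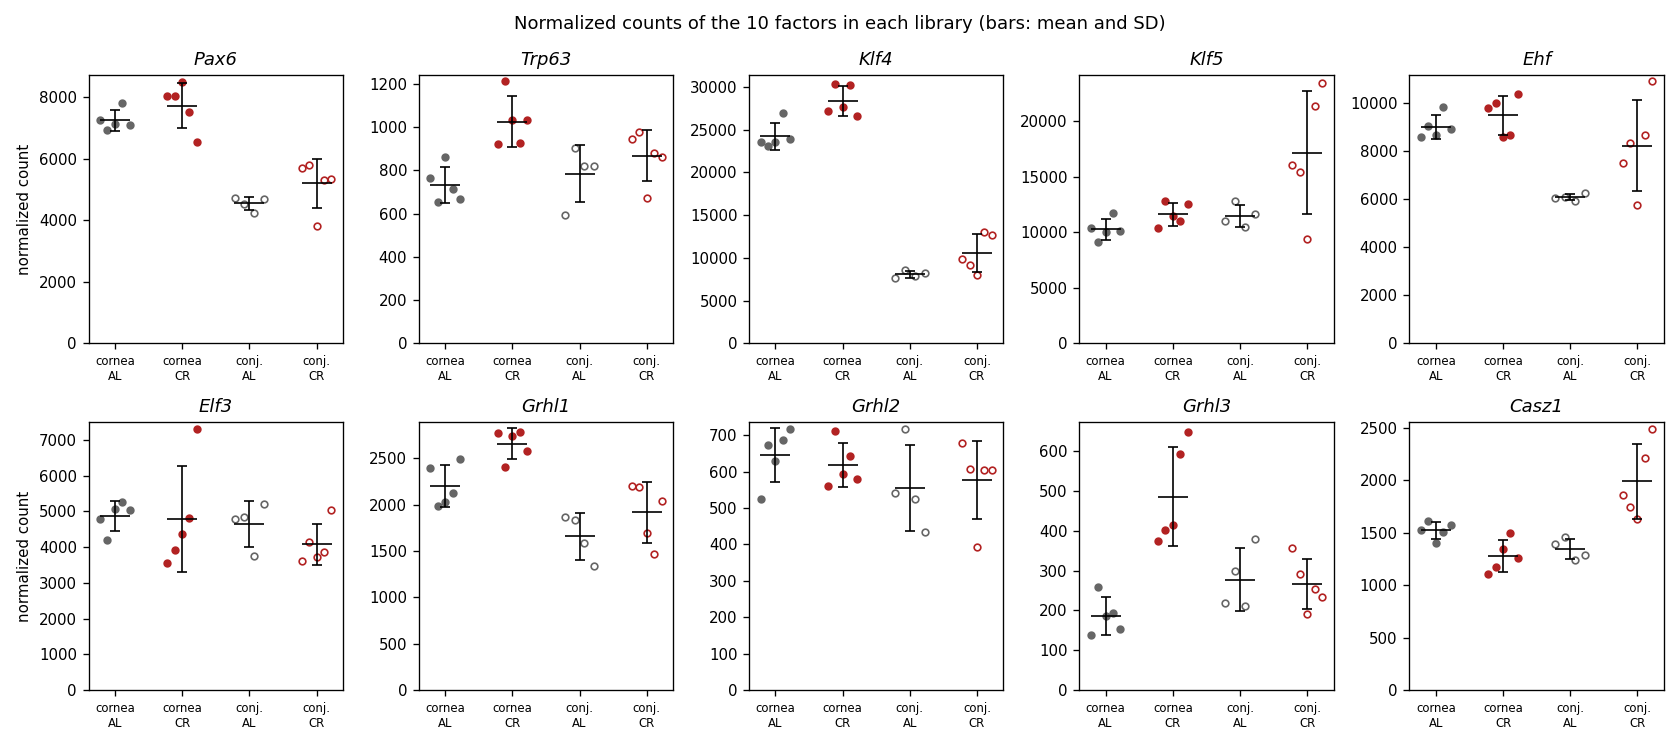
Normalized counts (y axis, linear from 0, each panel its own scale) of the 10 factors in each library of cornea AL (n = 5), cornea CR (n = 5), conjunctiva AL (n = 4) and conjunctiva CR (n = 5). Points are libraries and bars are the mean and SD. The 5 cornea CR libraries of Grhl3 lie between 373.5 and 648.3, above all cornea AL libraries, and the conjunctiva groups of Grhl3 overlap.

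To ask whether CR changed these factors in the cornea, the AL and CR libraries were compared with limma over all genes. A gene was called at an adjusted p under 0.05 and a fold over 1.5. Grhl3 was the 1 factor of the 10 that was called, and it rose. By the same rule 150 of 12278 tested genes were called in the cornea, 1.22% (92 higher and 58 lower, or 55 higher and 119 lower when libraries were scaled on epithelial genes). That scaling used the mean of 10 epithelial genes. Of these, 5 were higher and 5 lower under CR in the cornea (median log2 change 0.0), and 1 was itself called higher. Without the fold limit 2 of the 10 factors passed, Grhl3 and Trp63, against 1.53% of all genes. For the same 2 factors no CR library overlapped an AL library, against 3.97% of all genes. The fitted mean was higher under CR for 7 of the 10, against 46.9% of all genes, and the median log2 change was 0.13 over the 10 and -0.03 over all genes. When scaled on epithelial genes, 5 of the 10 were higher. The distance of the 2 medians was 0.16 as fitted. Over alternatives with all libraries it ranged from 0.06 (share of genes at 0 as covariate) to 0.21 (no filter).

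Grhl3, which in skin controls barrier formation and wound closure, had 138.6, 258.9, 185.5, 193.7 and 153.5 normalized counts in cornea AL 1 to AL 5. It had 373.5, 402.4, 413.7, 591.6 and 648.3 in CR 1, 2, 3, 4 and 7. Every CR library was above every AL library, and the lowest was AL 1, the library with the lacrimal gland genes. The highest was CR 7, the library with the highest sum over the 6 conjunctival keratin genes, most of it Krt13. The mean was 186 ± 46.6 (SD, n = 5) under AL and 486 ± 125 (SD, n = 5) under CR, a fold of 2.60 with a 95% interval of 1.96 to 3.45. The log2 change of 1.38 ± 0.19 (SE) had an adjusted p of 8.9e-04 (limma). Without AL 1 it was 1.28 (adjusted p = 0.0039, limma), without CR 7 it was 1.26 (adjusted p = 0.0017, limma), and without both AL 4 and CR 1, an alternative chosen after the data were seen, it was 1.49 (adjusted p = 2.9e-04, limma). Marker genes of other cells were compared between the diets in the cornea as well. Of the 6 conjunctival keratin genes 6 were higher under CR and 0 were called (median log2 change 0.38). Their sums had a median of 33872 in AL (26287 to 42641) and of 32273 in CR libraries. The CR sums lay between 31376 and 33029, within the AL range, except for CR 7 at 65373. Of 9 macrophage genes 5 were tested, 5 were lower (median -0.38) and 1, C1qa, was called, with sums of 320 to 427 in AL and 207 to 311 in CR libraries. Together with the lacrimal gland genes, the part of these cells in the rise of Grhl3 was not tested.

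The rise of Grhl3 could also be read without any scaling, as its part of the reads of the 3 grainyhead-like genes in the same library. That part was 4.54%, 8.88%, 6.54%, 6.45% and 4.57% in cornea AL 1 to 5 and 10.1%, 11.4%, 11.0%, 14.7% and 17.0% in CR 1, 2, 3, 4 and 7. The lowest CR library was above the highest AL library. In the conjunctiva it was 8.35% to 17.6% under AL and 8.12% to 11.0% under CR, and the groups overlapped.

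Grhl1, which acts in desmosome formation in the epidermis, had a mean of 2202 ± 225 (SD, n = 5) under AL and 2655 ± 165 (SD, n = 5) under CR in the cornea, a fold of 1.21 (95% interval 1.04 to 1.40). Its adjusted p of 0.175 (limma) did not pass, and 4 of the 5 CR libraries were above all AL libraries. Grhl2, which maintains E-cadherin and claudin genes, had means of 646 ± 74.7 and 618 ± 60.8 (SD, n = 5 each), a fold of 0.959 (0.801 to 1.15, adjusted p = 0.828, limma), with overlapping libraries. The 3 paralogs therefore had fitted log2 changes of 0.27, -0.06 and 1.38.

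Trp63 had 764.6, 652.2, 859.0, 714.5 and 665.3 normalized counts in cornea AL 1 to 5. It had 923.3, 1209.9, 1032.6, 926.8 and 1030.9 in CR 1, 2, 3, 4 and 7. All 5 CR libraries lay above all AL libraries. The fold of 1.40 (95% interval 1.18 to 1.67) was under the limit of 1.5, and the log2 change of 0.49 ± 0.12 (SE) had an adjusted p of 0.0468 (limma). That p ranged from 0.0283 to 0.144 when 1 library was left out (0.102 without AL 1), was under 0.05 for 3 of those 10 fits, and ranged from 0.0115 to 0.276 over the other alternatives.

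Klf4 and Klf5 were somewhat higher under CR in the cornea, and neither passed. Klf4 had 23526, 23092, 23587, 26996 and 23849 normalized counts in AL 1 to 5 and 27174, 30277, 27617, 30259 and 26646 in CR 1, 2, 3, 4 and 7. Only AL 4 overlapped the CR libraries. The fold of Klf4 was 1.17 (95% interval 1.03 to 1.34, adjusted p = 0.197, limma). Klf5 had means of 10288 ± 933 and 11635 ± 1022 (SD, n = 5 each), a fold of 1.13 (0.980 to 1.31, adjusted p = 0.350, limma). The Klf4 to Klf5 read ratio was 2.27 to 2.53 under AL and 2.12 to 2.75 under CR.

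Casz1 pointed the other way in the cornea. It had 1520.4, 1607.0, 1400.3, 1505.9 and 1572.6 normalized counts in AL 1 to 5 and 1107.2, 1172.2, 1347.1, 1501.0 and 1257.5 in CR 1, 2, 3, 4 and 7. All CR libraries but CR 4 were below all AL libraries. The log2 change of -0.26 ± 0.11 (SE) had an adjusted p of 0.213 (limma) and did not pass. Pax6 (fold 1.06, 95% interval 0.925 to 1.22), Ehf (1.05, 0.917 to 1.20) and Elf3 (0.955, 0.761 to 1.20) had the smallest changes next to Grhl2. Their intervals all ended under a fold of 1.5. Elf3 spread widely under CR, from 3553 in CR 1 to 7312 in CR 7, the library with the highest keratin sum, against 4195 to 5262 under AL. Its log2 change of -0.07 was -0.23 (adjusted p = 0.287, limma) without CR 7. At an unadjusted p under 0.05 stood 5 of the 10 factors (Grhl3, Trp63, Grhl1, Klf4 and Casz1), against 18.1% of all genes in the cornea.

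**Figure D2:**
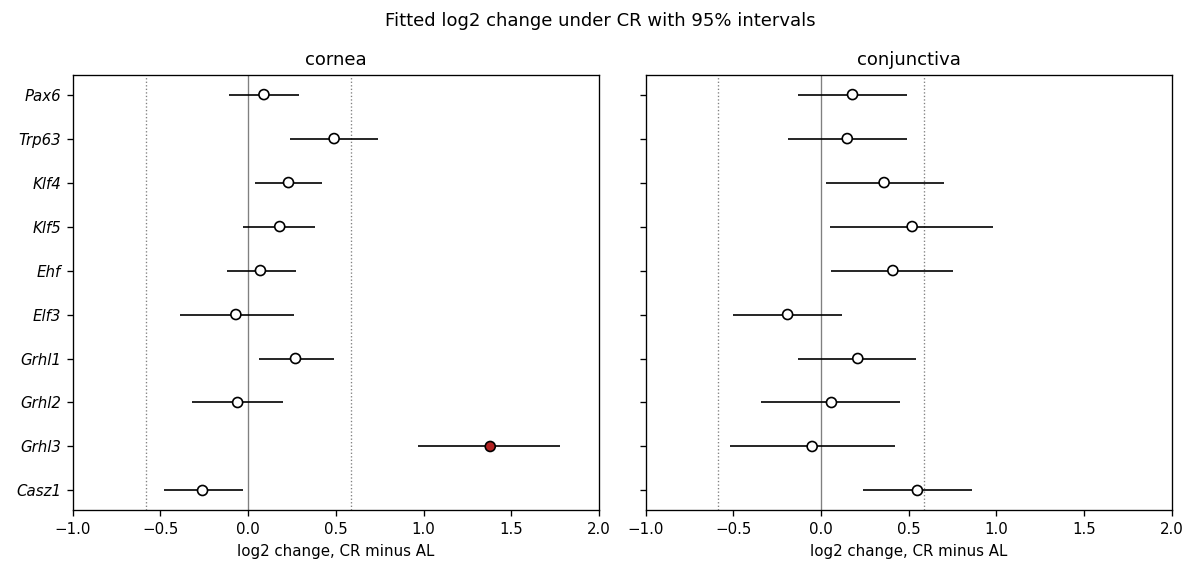
Fitted log2 change under CR (x axis, CR minus AL) of each factor in cornea (left) and conjunctiva (right), with points for the estimate and lines for the 95% interval. Dotted lines mark a fold of 1.5 either way and the red point is the called gene, Grhl3 in the cornea at 1.38.

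In the conjunctiva none of the 10 factors was called. By limma 50 of 13929 tested genes were called there, 0.359% (31 higher and 19 lower, or 29 higher and 27 lower after quantile normalization). At an unadjusted p under 0.05 stood 4 of the 10 (Casz1, Klf5, Ehf and Klf4, all higher under CR), against 9.4% of all genes. With voom on the recovered reads, the other tool run, the count called was also 0. The fitted mean was higher under CR for 8 of the 10, against 48% of all genes, and for 1 factor, Casz1, all CR libraries were separate from all AL libraries, against 3.87% of all genes. Scaling on 10 epithelial genes moved the median of all genes from -0.02 to -0.18, and the median of the 10 factors from 0.19 to 0.03. Such scaling shifts all genes by nearly the same amount, so it leaves the distance of these medians, 0.21, as it was by construction. With it 6 of the 10 factors were higher under CR. Over the alternatives with all libraries that distance ranged from 0.12 (quantile normalization) to 0.26 (array weights).

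Casz1 had 1391.6, 1456.6, 1239.3 and 1291.0 normalized counts in conjunctiva AL 1, 3, 4 and 5. It had 1859.5, 1745.6, 1631.6, 2208.9 and 2487.8 in CR 1 to 5. All 5 CR libraries lay above all AL libraries. The mean was 1345 ± 97.8 (SD, n = 4) under AL and 1987 ± 354 (SD, n = 5) under CR, a fold of 1.46 (95% interval 1.18 to 1.81). The log2 change of 0.55 ± 0.15 (SE) had an adjusted p of 0.154 (limma), which ranged from 0.0542 to 0.392 when 1 library was left out.

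Klf5, Ehf and Klf4 shared a pattern across the conjunctiva libraries in which 4 CR libraries were high and CR 3 was low. Klf5 had 10993, 12790, 10519 and 11650 normalized counts in AL 1, 3, 4 and 5 and 16096, 15447, 9416, 21405 and 23476 in CR 1 to 5. The highest, CR 5 and CR 4, were above all others and CR 3 was the lowest of all 9 libraries. Ehf lay between 5925 and 6231 in the 4 AL libraries, and at 7475, 8308, 5738, 8666 and 10897 in CR 1 to 5. Klf4 had 7608 to 8613 in AL libraries and 9911, 9218, 8032, 13068 and 12628 in CR 1 to 5. The folds were 1.43 for Klf5 (95% interval 1.04 to 1.97, adjusted p = 0.464), 1.32 for Ehf (1.04 to 1.69, 0.430) and 1.29 for Klf4 (1.02 to 1.62, 0.473), all by limma.

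Conjunctiva CR 3 bore on these values. All 10 factors were under their tissue mean there, with a median log2 deviation of -0.30. The same held in AL 4, with a median of -0.22. The muscle sum in CR 3 was 132348 and the sum over 10 epithelial genes 80981, against 90596 to 130525 in the other 8 libraries. Without CR 3, Klf5 had a log2 change of 0.71 and passed (adjusted p = 0.0366, limma), Ehf had 0.53 (0.0891), Casz1 0.61 (0.0542) and Klf4 0.46 (0.165). Over all genes 127 were called without CR 3, against 50 with it. Without CR 5, the library with the meibomian gland genes, Klf5 had 0.39 (0.571) and Casz1 0.46 (0.196). The part of muscle and gland RNA in these values was not tested.

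The remaining factors had changes that could not be told from 0 in the conjunctiva. Grhl3 had 219.5, 299.6, 211.9 and 378.8 normalized counts in AL 1, 3, 4 and 5 and 357.5, 292.2, 192.1, 253.1 and 233.8 in CR 1 to 5, so the groups overlapped. Its fold was 0.965 (95% interval 0.696 to 1.34, adjusted p = 0.962, limma), an interval that ends below the lower bound of its fold in the cornea. Trp63 had a fold of 1.11 (0.877 to 1.40), Grhl1 1.15 (0.913 to 1.46), Pax6 1.13 (0.913 to 1.40) and Grhl2 1.04 (0.793 to 1.37). Elf3, at a fold of 0.877 (0.706 to 1.09), was the factor besides Grhl3 with a lower mean under CR. The 2 epithelial ETS factors thus had fitted changes of opposite sign in the conjunctiva, and the Ehf to Elf3 read ratio within a library was 1.19 to 1.58 under AL and 1.54 to 2.24 under CR, with CR 3 and AL 4 the libraries that overlapped.

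Fibroblast and macrophage genes had lower values under CR in the conjunctiva. Of 9 fibroblast genes, 9 were lower under CR and 2 of them, Col1a1 and Col3a1, were called. Their sum was 41834 to 62539 normalized counts in AL and 27352 to 53837 in CR libraries. Of 9 macrophage genes, 9 were lower and 0 were called, with sums of 3509 to 4631 in AL and 2244 to 3562 in CR libraries. Of the 10 epithelial genes, 9 were higher under CR and 0 were called (median log2 change 0.1), with sums of 90596 to 117777 in AL and 80981 to 130525 in CR libraries. The part of these cell types in the higher counts of Casz1, Klf5, Ehf and Klf4 was not tested. In the cornea the fibroblast sum was 945 to 1929 in AL and 475 to 2269 in CR libraries, and 7 lymphocyte genes summed to at most 9.4.

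Whether the CR effect differed between the tissues was tested as the difference of the log2 changes (conjunctiva minus cornea) over 11929 genes. The changes and their standard errors came from 2 limma fits, 1 for each tissue. The standard error of the difference treats the libraries of the tissues as independent. At an adjusted p under 0.05, 2 genes were called, 0.0168%, and 0 of the 10 factors. At an unadjusted p under 0.05 stood 2 of the 10, Grhl3 and Casz1, against 7.48% of all genes. With voom on the recovered reads the count was also 0. Grhl3 had 1.38 in the cornea and -0.05 in the conjunctiva, a difference of -1.43 ± 0.30 (SE, 95% interval -2.03 to -0.83, adjusted p = 0.0843 by limma). Casz1 had -0.26 and 0.55, a difference of 0.81 ± 0.18 (SE, 95% interval 0.44 to 1.18, adjusted p = 0.137 by limma). With 1 library left out, the adjusted p of Grhl3 was 0.0322 without cornea AL 2 and 0.0268 without cornea CR 1, and reached 0.341 without conjunctiva AL 5. For Casz1 it was 0.0481 with array weights. When libraries were paired by title, over the titles that both tissues share, the adjusted p by limma was 0.879 for each. The differences were then -1.41 for Grhl3 and 0.7 for Casz1. Next in size were Klf5 at 0.34 (-0.16 to 0.83, adjusted p = 0.771), Trp63 at -0.34 (-0.74 to 0.07, 0.727) and Ehf at 0.33 (-0.06 to 0.72, 0.715), by limma. The intervals of these and of the other 5 factors held 0.

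The tissues were also set side by side. The tables of the 2 tissues were normalized separately, so levels are given in RPM (reads of the gene after scaling a library to 1000000 counted reads) and as a description, with no test. The cornea was scraped epithelium, whereas the conjunctiva was a tissue piece that also held muscle and fibroblast RNA. The part of this make-up in the levels and ratios of the tissues was not tested. Klf4 was the factor that set the tissues furthest apart. It had 2090 ± 140 (SD, n = 5) in cornea AL and 683 ± 25.1 (SD, n = 4) in conjunctiva AL libraries, a ratio of 3.06, and 2470 ± 169 and 833 ± 121 (SD, n = 5 each) under CR, a ratio of 2.96. The libraries of the 2 tissues did not overlap under either diet. Klf5 did not follow, with ratios of 0.914 under AL and 0.752 under CR and overlapping libraries. Within a library, Klf4 had 2.12 to 2.75 reads per Klf5 read over all cornea libraries and 0.538 to 0.853 over all conjunctiva libraries, a comparison that no scaling enters.

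**Figure D3:**
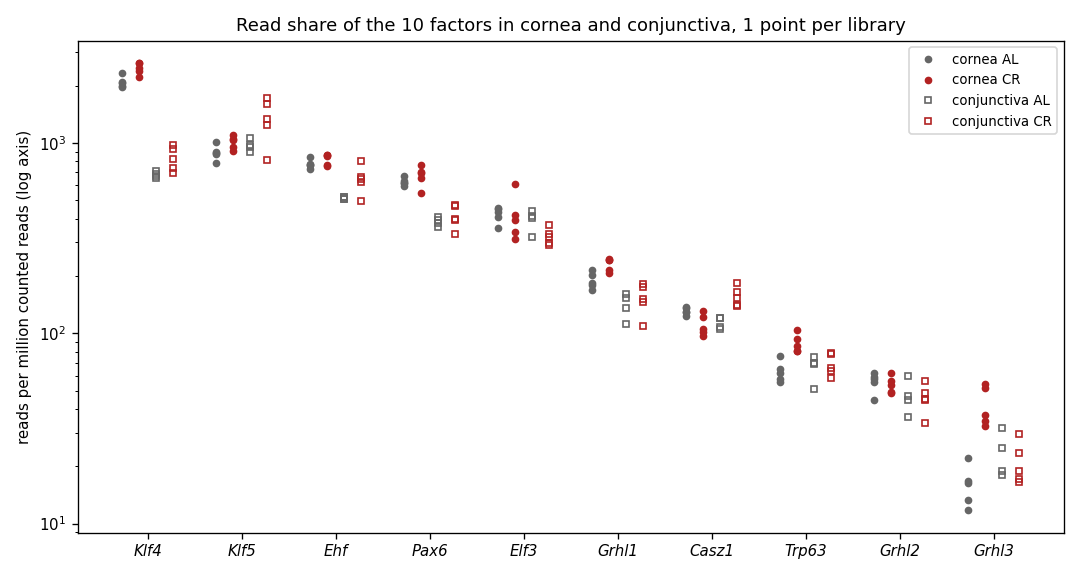
RPM, reads after scaling to 1000000 counted reads (y axis, log scale), of each factor, with 1 point for each library, filled for cornea, open for conjunctiva, grey for AL and red for CR. Factors are ordered by their mean over AL libraries. Klf4 is about 3 times as high in cornea, Klf5 overlaps between tissues, and Grhl3 is above the conjunctiva in cornea CR libraries, at 42.1 against 21.2.

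Under AL, 5 of the 10 factors did not overlap between tissues, all with higher cornea libraries, against 42.7% of 14278 genes. They were Klf4, Pax6 (ratio 1.62), Ehf (1.51), Grhl1 (1.35) and Casz1 (1.15). Under CR it was 6 of the 10, against 30.8% of genes, and the set differed. Klf4, Pax6 (1.63), Grhl1 (1.51), Grhl3 (1.99) and Trp63 (1.29) were higher in the cornea and Casz1 (0.708) was higher in the conjunctiva, whereas Ehf (1.27) overlapped. Casz1 thus stood higher in the cornea under AL and in the conjunctiva under CR, and Grhl3 overlapped between tissues under AL. Grhl3 had 16.0 ± 4.0 (SD, n = 5) in cornea and 23.4 ± 6.34 (SD, n = 4) in conjunctiva AL libraries, and 42.1 ± 9.97 and 21.2 ± 5.42 (SD, n = 5 each) under CR. Casz1 had 131 ± 5.46 and 114 ± 7.85 under AL, and 111 ± 14.2 and 157 ± 18.2 under CR. When all libraries were scaled together by the median of ratios, every ratio of cornea to conjunctiva was larger. Casz1 under CR then had a ratio of 0.797 with overlapping libraries, and Grhl2 under CR had 1.33 with no overlap.

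**Figure D4:**
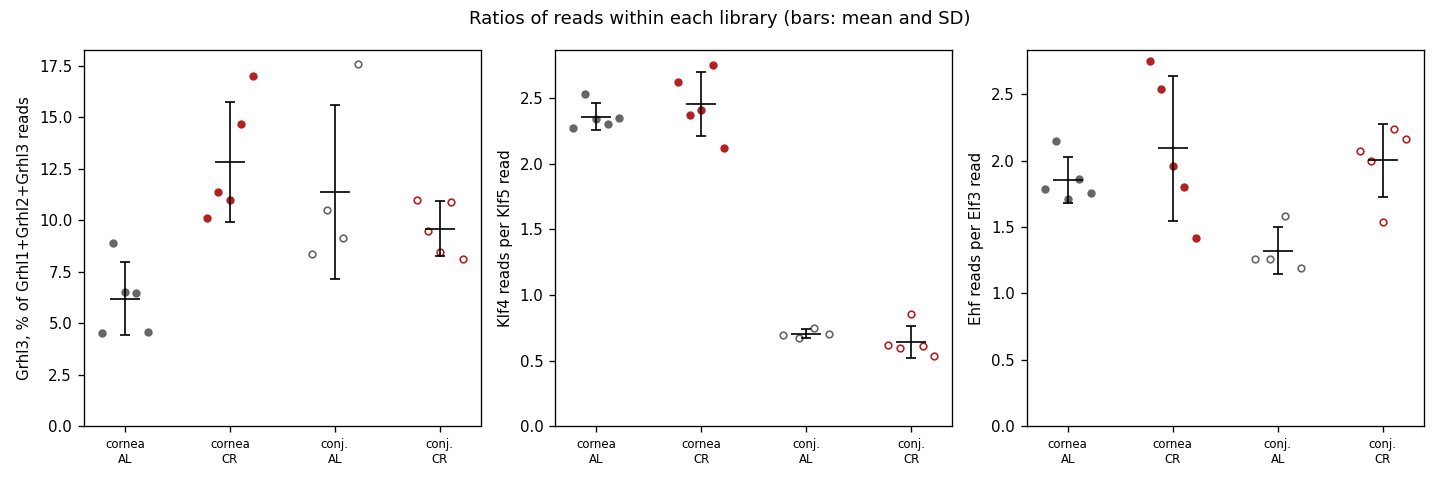
Ratios of reads within each library (y axes from 0) for Grhl3 as a percentage of summed Grhl1, Grhl2 and Grhl3 reads, for Klf4 per Klf5 read and for Ehf per Elf3 read. Points are libraries of the 4 groups and bars are the mean and SD. The Grhl3 part is 10.1% to 17.0% in cornea CR and 4.54% to 8.88% in cornea AL libraries, and the Klf4 to Klf5 ratio is above 2 in all cornea libraries and under 1 in all conjunctiva libraries.

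The relatives of the factors were compared next. Of the 17 KLF genes 13 were tested in the cornea, of which 11 were higher under CR and 2 were called, Klf13 and Klf16, with a median log2 change of 0.23. Among the 13, 5 were higher and 1 lower at an unadjusted p under 0.05, against 18.1% of all genes. The lower 1 was Klf17, at 23.2 ± 15.4 and 8.35 ± 12.6 normalized counts (fold 0.168, adjusted p = 0.231, limma). Klf13, a broadly expressed family member, had 446 ± 149 normalized counts in AL and 902 ± 213 in CR cornea libraries (SD, n = 5 each), a fold of 2.06 (95% interval 1.52 to 2.80, adjusted p = 0.0211, limma). Klf16 had 209 ± 48.6 and 355 ± 56.5, a fold of 1.71 (1.32 to 2.22, adjusted p = 0.0378, limma). The call of Klf13 was lost without any one of AL 1, AL 2, AL 5, CR 2 or CR 3 (adjusted p 0.0581 to 0.0819), and that of Klf16 without any one of AL 1, AL 2, AL 3, AL 5, CR 2 or CR 3 (0.0661 to 0.117). Both calls were lost with the replicate number as a block (0.117 for Klf13 and 0.12 for Klf16) and with each library's share of genes at 0 as covariate (log2 changes 0.72 and 0.62, adjusted p 0.137 and 0.194), and that of Klf16 also with no filter (0.0609) and when scaled on epithelial genes (0.0638). Klf10, a TGF-beta inducible factor that also follows the circadian clock, had a fold of 1.71 and an adjusted p of 0.0970 (limma) in the cornea, and a fold of 0.716 in the conjunctiva. It passed in the cornea without AL 4 (log2 change 0.84, adjusted p = 0.0458, limma), without AL 4 and CR 1 (0.91, 0.0214) and with array weights, which count variable libraries less (0.87, 0.0178). Over all genes these settings called 536, 1212 and 705 in the cornea, against 150 as fitted over all libraries without weights. Leaving out AL 4 and CR 1 together was chosen after the data were seen.

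In the conjunctiva 14 KLF genes were tested, 10 were higher under CR and 0 were called, with a median of 0.45. The smallest p were those of Klf11 (60.7 ± 15.1 to 133 ± 37.9, fold 2.16, adjusted p = 0.139), Klf9 (3125 ± 869 to 4785 ± 719, fold 1.57, 0.211) and Klf6 (3651 ± 327 to 5027 ± 974, fold 1.36, 0.335), by limma with n = 4 AL and 5 CR. KLF9 is induced by glucocorticoids. With Klf4, Klf5, Klf13 and Klf15, 7 of the 14 KLF genes stood at an unadjusted p under 0.05, all higher, against 9.4% of all genes.

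**Figure D5:**
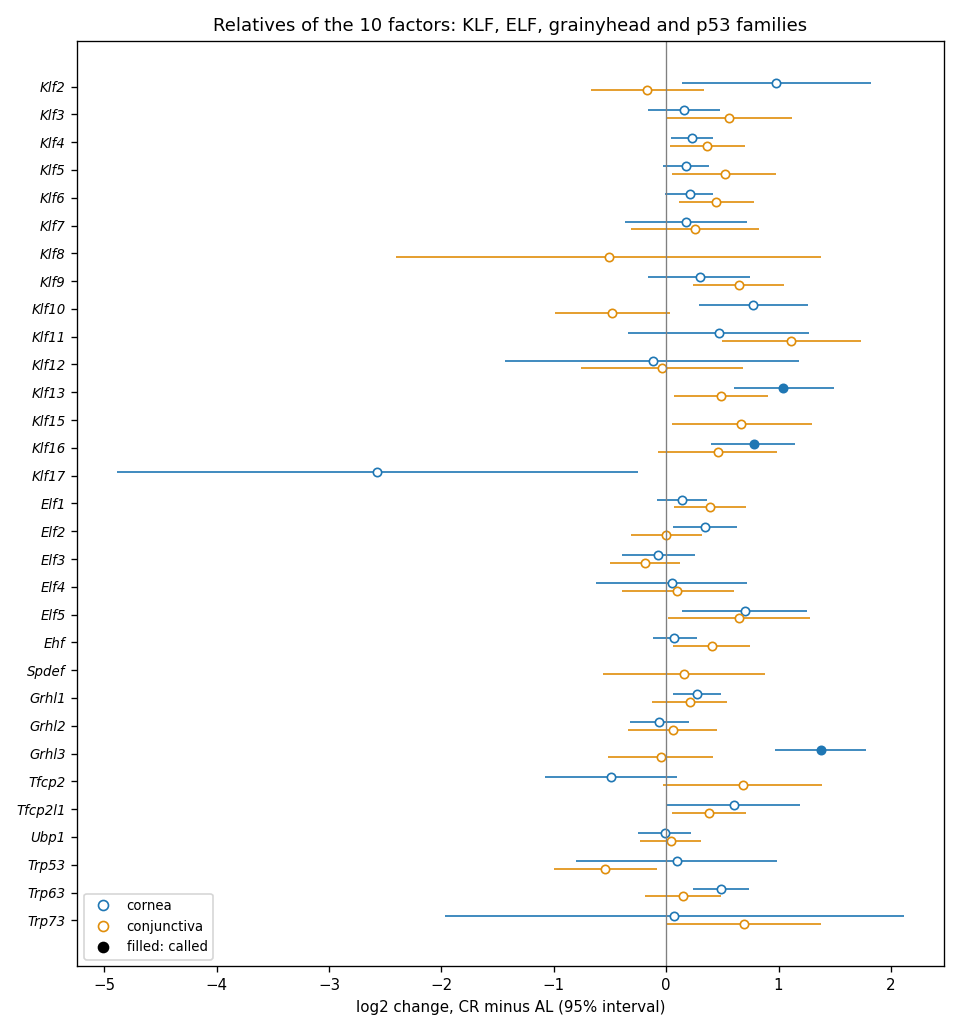
Fitted log2 change under CR (x axis) with 95% intervals for the tested KLF, ELF and SPDEF, CP2 and grainyhead, and p53 family genes, blue for cornea and orange for conjunctiva, filled where called. Filled points are Grhl3, Klf13 and Klf16, all in the cornea.

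Among the ETS relatives none was called in either tissue. Elf5, an ETS factor of glandular epithelia, had 69.7 ± 31.8 and 107 ± 7.35 normalized counts in the cornea (fold 1.62, adjusted p = 0.184) and 84.6 ± 37.3 and 126 ± 23.1 in the conjunctiva (fold 1.57, adjusted p = 0.509), by limma. Elf2 in the cornea had a fold of 1.27 (adjusted p = 0.196) and Elf1 had 1.10 in the cornea (0.501) and 1.31 in the conjunctiva (0.409). Of the CP2 relatives of the grainyhead genes, Tfcp2l1 had 49.2 normalized counts under AL and 76.6 under CR in the cornea and 2447 and 3179 in the conjunctiva, with adjusted p of 0.266 and 0.445 by limma. Tfcp2 in the conjunctiva had a fold of 1.60 (adjusted p = 0.540). Of the p53 family, Trp53 had folds of 1.07 in the cornea and 0.687 in the conjunctiva (adjusted p = 0.929 and 0.421, limma), and Trp73 was near the minimum level in the cornea and had a fold of 1.61 in the conjunctiva (adjusted p = 0.532). Of 9 PAX genes Pax6 alone passed the minimum level in the cornea. In the conjunctiva Pax7, a factor of muscle stem cells, passed as well, at 11.5 normalized counts in each diet.

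Among 16 other epithelial factors 0 were called. In the cornea 11 of 15 tested were higher, with a median of 0.13, and the smallest p were those of Tfap2b (551 ± 126 to 367 ± 101, fold 0.660, adjusted p = 0.107), Otx1 (fold 0.844, 0.232) and the retinoid receptor gene Rarg (fold 1.28, 0.234). In the conjunctiva 14 of 16 were higher, with a median of 0.16, led by Pitx1 (fold 1.42, adjusted p = 0.538), Hes1 (1.39, 0.547) and Rarg (1.18, 0.679). Of 8 mesenchymal factors, which in development oppose the epithelial state, 0 were called. In the cornea 4 were tested, with a median of -0.03. Zeb2 there had a log2 change of -2.26 ± 1.16 (adjusted p = 0.332), Snai2 0.17 and Prrx1 0.28. The level of Zeb2 was low and scattered, at 74.3 ± 54.7 normalized counts under AL and 20.3 ± 34.7 under CR (SD, n = 5 each). In the conjunctiva 6 of 7 were lower, with a median of -0.29, among them Twist1 (fold 0.622, adjusted p = 0.537) and Snai1 (0.687, 0.728), whereas Snai2 had 1.32 (0.531). Tfap2b passed without cornea CR 7 (log2 change -0.74, adjusted p = 0.0255) and with array weights (-0.7, 0.0153). Zeb2 passed in the cornea without AL 4 (-3.25, 0.0392), without AL 4 and CR 1 (-4.05, 6.1e-04) and with array weights (-3.17, 0.0404), and Rarg without AL 4 and CR 1 (0.59, 0.0028). Cornea calls over all genes numbered 162 without CR 7 and 536 without AL 4, against 150 as fitted. They numbered 705 with array weights and 1212 without AL 4 and CR 1. With each library's share of genes at 0 as covariate, the change of Zeb2 turned in sign. All these values are by limma.

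Genes known as targets of the factors were examined as fixed groups. Of 12 targets of p63, which anchor the basal layer, 10 were higher in each tissue and 0 were called, with medians of 0.24 in the cornea and 0.12 in the conjunctiva against -0.03 and -0.02 over all genes. Col17a1, a hemidesmosome collagen, had 9645 ± 2069 and 13564 ± 2345 normalized counts in the cornea (fold 1.41, adjusted p = 0.0785), Dst had 6017 ± 415 and 7565 ± 1098 (fold 1.25, 0.137) and Itga6 had 6579 ± 1063 and 8430 ± 1342 (fold 1.28, 0.152). In the conjunctiva Dst (fold 1.36, adjusted p = 0.304), Jag2 (1.48, 0.397) and Itga6 (1.36, 0.509) led. None of these passed in limma as fitted over all libraries without weights. Col17a1 passed in the cornea without AL 4 (log2 change 0.62, adjusted p = 0.0066), without AL 4 and CR 1 (0.7, 3.6e-04) and with array weights (0.61, 0.0025). Over all genes these settings called 536, 1212 and 705 in the cornea, against 150 as fitted.

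Of 13 grainyhead targets, which build junctions and the epithelial barrier, 7 were higher in the cornea and 10 in the conjunctiva, 0 were called, and the medians were 0.12 and 0.11. Spint1, a membrane protease inhibitor, had a fold of 1.26 in the cornea (adjusted p = 0.172), Arhgef19 1.37 (0.198) and Prom2 1.23 (0.259). Arhgef19 passed without cornea CR 1 (log2 change 0.62, adjusted p = 0.0382) and without AL 4 and CR 1 (0.68, 0.0078). Over all genes these settings called 309 and 1212 in the cornea, against 150 as fitted. In the conjunctiva Prom2 had 1.42 (0.297), the splicing factor gene Esrp2 0.515 (0.479) and Arhgef19 1.35 (0.501). Of 6 ELF3 targets 2 were tested in the cornea and 3 in the conjunctiva, with 0 called. Tgfbr2 had a fold of 1.63 in the cornea (adjusted p = 0.115) and 0.848 in the conjunctiva (0.679), Cldn7 0.869 (0.310) and 0.981 (0.977). Sprr2a3 had a mean of 133 with an SD of 253 in conjunctiva AL and 0.97 in CR libraries (adjusted p = 0.358), a gene with near-identical copies whose reads may be split. All values are by limma.

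The 11 targets of KLF4 and KLF5 overlap with the 7 corneal differentiation genes, and 1 gene of both lists was called. Aqp5, a water channel of the corneal epithelium, fell in the cornea from 44377 ± 8908 to 28919 ± 4792 normalized counts (SD, n = 5 each), a fold of 0.657 (95% interval 0.530 to 0.813, adjusted p = 0.0476, limma). In the conjunctiva it had 1409 ± 130 and 2151 ± 317, a fold of 1.52 (1.23 to 1.87, adjusted p = 0.0900, limma), and without CR 3 it passed there (log2 change 0.66, adjusted p = 0.0356, limma). The cornea call was lost without any one of AL 1, AL 2, AL 3, AL 5, CR 2, CR 3 or CR 7 (adjusted p 0.0833 to 0.143). It was also lost with the share of genes at 0 as covariate (log2 change -0.32, adjusted p = 0.269, against -0.61), with the replicate block (-0.47, 0.315), with voom (-0.6, 0.0582), with no filter (-0.61, 0.0559) and, by its fold, after quantile normalization (-0.5, 0.0319). In the cornea 4 of the 11 targets were higher and 7 lower, with a median of -0.10, and in the conjunctiva 8 were higher and 3 lower, with a median of 0.13. Tkt and Clu in the cornea (folds 0.758 and 0.849), Tjp1 and Lamb3 in the cornea (1.20 and 1.41), and Aldh3a1 and Tkt in the conjunctiva (1.34 and 1.20) had the next smallest p and did not pass, except Tkt in the cornea without AL 4 and CR 1 (log2 change -0.64, adjusted p = 0.0281). That setting called 1212 of all genes in the cornea, against 150 as fitted. Leaving out conjunctiva CR 3, where Aqp5 passed, called 127 of all genes there, against 50.

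Genes whose E-boxes are bound by the clock were higher in both tissues and are given because the Klf4 window holds an E-box and because feeding time differed by the methods. Of 12 such genes, 12 were higher under CR in each tissue, 11 were called in the cornea and 10 in the conjunctiva, with medians of 1.47 and 1.5. Klf4 itself did not pass in either tissue. The part of feeding time in the change of Grhl3 was not tested.

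The factors were compared by how they varied over the 19 libraries, after centering log2 values within each tissue. The libraries share diet groups, depth and tissue make-up, so these correlations are a description. Klf4 and Klf5 were most alike (Pearson r = 0.92, Spearman rho = 0.90), and Ehf was as near to Klf5 (0.91 and 0.88). Grhl3 and Trp63 were each other's nearest factor (0.68 and 0.76). Elf3 stood apart, with no factor above an r of 0.14. Among all 11929 genes tested in both tissues, the gene most like Grhl3 was Maff (0.86), a small MAF factor gene, and the gene most like Klf5 was Prkx (0.95). The others were Ino80d for Klf4 (0.92), Daam1 for Ehf (0.93), Smagp for Pax6 (0.87), Shmt2 for Elf3 (0.87), Cyp4f39 for Casz1 (0.83), Zdhhc21 for Grhl2 (0.82), Dazap2 for Grhl1 (0.80) and Glmn for Trp63 (0.80).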

How the data were processed

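Poly(A) RNA of 10 cornea and 9 conjunctiva libraries was sequenced. The authors trimmed the reads, aligned them to the mouse genome with STAR, counted them per gene with HTSeq and normalized each tissue with DESeq2. Versions of the aligner and counter are not given in the sources used here. The deposited values were log2 of the normalized counts plus 1, and all of them (100%) came back to whole reads within a tolerance of 0.01. Groups were taken from the labels, and 0 columns were unmapped.

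The log2(normalized count + 1) values of each tissue, for genes averaging 10 or more normalized counts, were fitted with limma 3.58.1 (trend, R 4.3.3) and adjusted by Benjamini-Hochberg over all genes tested. A gene was called at an adjusted p under 0.05 and a fold over 1.5, and the difference between tissues at an adjusted p under 0.05. Fold changes are on the scale with a pseudocount of 1. Analyses were tested on simulated data. Intervals are 95%. All 10 factors, the called genes of each list of relatives and targets (otherwise those with the smallest p, up to 3), and the gene most like each factor were named. The 10 factors and the gene lists were chosen with earlier results of these data known. Exon lengths came from GENCODE vM21. Alternatives were another pseudocount, filter, normalization, tool or covariate, a replicate block and libraries left out.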

Additional observations from a re-analysis of the deposited data

Results flagged for a closer look

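In 3 of 40 groups of 4 or 5 libraries (10 factors in 4 groups), 1 library stood far from the others by Dixon's ratio, where chance marks about 1 group in 20. Klf4 was 26996 normalized counts in cornea AL 4, above the other AL libraries, and this was the AL library with the highest share of genes at 0. Pax6 was 3833 and Grhl2 was 392 normalized counts in conjunctiva CR 3, below the other CR libraries. That library also had the highest skeletal muscle sum.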

How the results depend on the processing

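Grhl3 in the cornea was called under every one of the 21 alternatives run, with log2 changes of 1.26 to 1.5 when 1 library was left out and 1.2 to 1.49 otherwise. The adjusted p (limma) was highest, at 0.0128, with the replicate number as a block. The count of factors called in the cornea was 2 with no fold limit and 1 in all other alternatives. In the conjunctiva it was 0, except for 1 (Klf5) without CR 3, so 0 to 1 over the libraries left out. For the difference between tissues it was 0, except for 1 with array weights (Casz1) and 1 without cornea AL 2 or cornea CR 1 (Grhl3), again 0 to 1 over the libraries left out.

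Libraries of 1 replicate number did not deviate alike. This cannot tell whether cornea and conjunctiva libraries of 1 title came from 1 mouse, since tissues of a mouse need not deviate alike. The deviations of AL and CR libraries of 1 number had correlations from -0.30 to 0.29 (cornea) and from -0.06 to 0.05 (conjunctiva), and 1 of 8 numbered cornea libraries and 0 of 8 conjunctiva libraries correlated best with their own number. Cornea and conjunctiva libraries of 1 title had -0.42 to 0.14. With the replicate block, 1 factor was called in the cornea, 0 in the conjunctiva and 0 for the difference. Over all genes the block called 46 in the cornea and 10 in the conjunctiva, against 150 and 50 without it. Cornea calls numbered 705 with array weights, 62 with each library's share of genes at 0 as covariate, 53 to 536 with 1 library left out and 1212 without AL 4 and CR 1, and conjunctiva calls numbered 149 with array weights, 15 when scaled on epithelial genes and 26 to 127 with 1 library left out.

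Directions that turned were all of changes that did not pass in limma as fitted over all libraries without weights, and the cause was not tested. In the cornea, scaling on epithelial genes, which moved the median of all genes from -0.03 to -0.12, gave -0.0 for Pax6, -0.02 for Ehf and -0.01 for Trp73. Elf3 was 0.06 without AL 4 and CR 1 and -0.23 to 0.03 with 1 library left out. Each library's share of genes at 0 as covariate gave in the cornea -0.03 for Tjp1, 0.02 for Tkt, 0.36 for Zeb2 and -0.76 for Trp53. Tkt and Zeb2 had passed as lower under CR in other alternatives. Trp53 was -0.21 with the replicate block and -0.12 to 0.5 with 1 library left out. Trp73 was -0.09 with a pseudocount of 0.5, -0.25 with array weights, -0.35 with the block, -0.23 with voom and -0.33 to 0.87 with 1 library left out. In the conjunctiva, epithelial scaling gave -0.01 for Trp63 and -0.1 for Grhl2, array weights gave 0.12 for Grhl3 and 0.02 for Cldn7, and leaving out 1 library gave -0.05 to 0.19 for Grhl2, -0.17 to 0.11 for Grhl3 and -0.13 to 0.12 for Cldn7. For the difference between tissues, quantile normalization gave -0.02 for Pax6 and -0.15 for Klf4, the covariate gave -0.01 for Pax6, the block gave 0.02 for Elf3, and leaving out 1 library gave -0.22 to 0.04 for Elf3 and -0.17 to 0.02 for Grhl1.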
